A study of Caenorhabditis elegans with 12 samples.

Results

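The comparison described here sets *lpin-1(RNAi)* animals given glucose-rich diets against *lpin-1(RNAi)* animals given control diets, across all genes. The 6 libraries were chosen by their sample labels, 3 per diet, from the 12 libraries of the series. They were tested over 14696 of the 46778 genes in the deposited files, those with enough counts for a test. Each of the 6 libraries came from whole bodies of N2 worms, the usual wild-type strain. The worms ate bacteria that make double-stranded RNA against *lpin-1* from the egg stage, with 10 mM IPTG to switch that RNA on. As day 1 adults they were moved to plates with 10 μM FUdR, which prevents progeny from developing, with 2% added glucose or with no added glucose, and were kept at 20°C. RNAi, FUdR and the bacterial diet were therefore shared by both groups. The other 6 libraries are *control(RNAi)* animals (WT) on the same pair of diets, and are used here for the shared estimate of spread and where values are set beside WT. RNA was sequenced as stranded total RNA. No label says whether replicates were separate cultures, so *p* values measure the spread between these libraries, which may be technical.

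*lpin-1* encodes the worm lipin, an enzyme that removes phosphate from phosphatidic acid to give diacylglycerol, the precursor of stored fat and of several membrane lipids. Mammalian lipin 1 also acts as a partner of transcription factors of fat metabolism. In *C. elegans* a diet rich in glucose shortens life and changes fat synthesis, fat breakdown and glycerol metabolism. Much of this takes place in the intestine and the hypodermis, the tissue that also makes the collagen cuticle.

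The 6 libraries held between 16546025 and 31534259 counts on genes. Replicates 1 and 2 on control diets stood apart from each other. Their counts differed by a chi-square of 63.9 per gene, against 8.58 to 21.7 for the other pairs of one diet. The difference followed transcript length. In the longest of 10 equal groups of genes ordered by transcript length, replicate 1 on control diets lay 0.30 below its group on the log2 scale (median over genes) and replicate 2 lay 0.30 above it. In the shortest group the deviations were 0.13 and −0.13. The 3 libraries on glucose-rich diets stayed within 0.04 of their mean in every length group. The glucose effect itself ran with length, from a median log2 fold change of −0.21 in the shortest group to 0.26 in the longest, and in WT from −0.12 to 0.16. Of the genes called down below, 82 and 71 were in the 2 shortest groups and 6 in the longest, while calls up ranged from 28 to 46 per group. Where removing each library's trend with length (the length correction, chosen after the data were seen) or leaving out a single library moved a count of list members by over 1.5 times, that count is given as well.

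**Figure D1:**
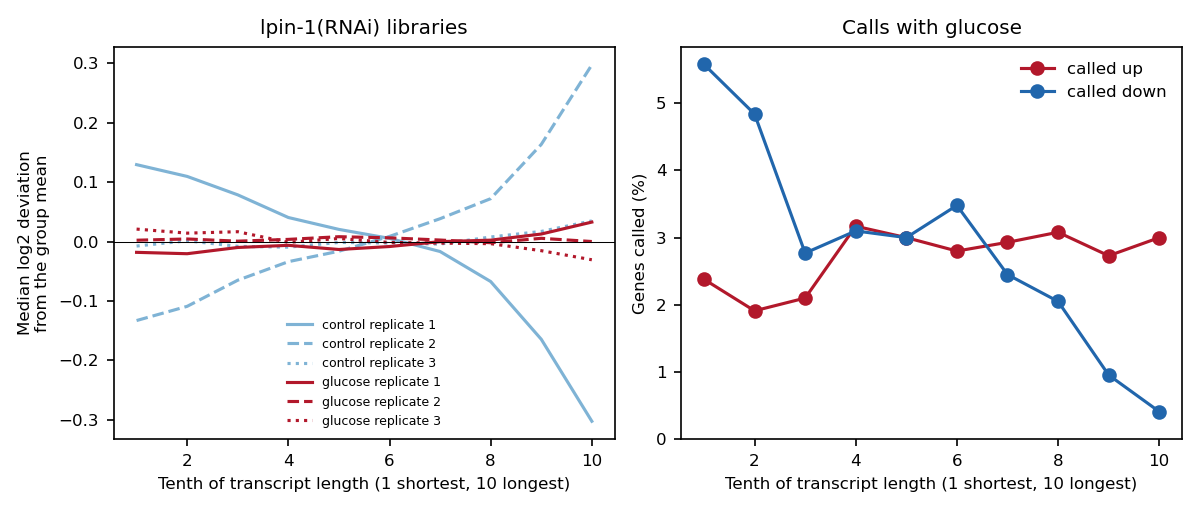
Left, the median deviation of each *lpin-1(RNAi)* library from the mean of its group (log2 scale) over 10 equal groups of genes ordered by transcript length, with blue lines for control diets and red lines for glucose-rich diets. Right, the percent of genes called up (red) or down (blue) with glucose in each group. Control replicates 1 and 2 run in opposite directions, to 0.30 below and above their mean in the longest group, and the share called down is 5.58% in the shortest and 0.409% in the longest.

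*lpin-1* (WBGene00010425; WBcel235 chromosome V, 13650262 to 13654129), the RNAi target, was present at 88.2, 94.7 and 84.9 CPM (counts relative to library size, with TMM factors that even out library composition) in the 3 *lpin-1(RNAi)* libraries without added glucose. With glucose the values were 108, 105 and 122 CPM. WT animals had 158.1 ± 12.28 CPM (SD, n = 3) without added glucose and 165 ± 15.8 CPM (SD, n = 3) with it. All 6 *lpin-1(RNAi)* libraries were below all WT libraries, so the knockdown was present and partial on both diets. The log2 fold change of RNAi was −0.82 ± 0.10 (SE) under control diets and −0.56 ± 0.10 under glucose-rich ones, with adjusted *p* = 1.6e-05 and 0.00062 (quasi-likelihood test of edgeR, Benjamini-Hochberg adjustment over all tested genes, used for every adjusted *p* below). With glucose the residual *lpin-1* RNA was higher by 0.32 ± 0.10 on the log2 scale (adjusted *p* = 0.0455). The *p* stayed under 0.05 in 4 of 19 other fits, and leaving out any single *lpin-1(RNAi)* library raised it to between 0.103 and 0.301.

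Glucose changed 817 genes (5.56% of those tested) under *lpin-1* RNAi at a fold change above 2 and an adjusted *p* under 0.05, the rule for every gene said below to have risen or fallen. Of these, 397 rose (2.7% of the genes tested) and 420 fell (2.86%), the shares against which the counts of each gene list below stand. At an unadjusted *p* under 0.05, 12.8% of genes were higher and 15.3% lower. In whole worms, fewer cells of a type and less RNA per cell cannot be told apart. The values of the 3 libraries of one diet did not overlap those of the other for 394 of the genes that rose and 418 of those that fell, against 35.6% of all tested genes. The changes were mostly moderate: 136 of the genes that rose and 79 of those that fell changed more than 4-fold. The median level was 4.89 CPM for genes that rose and 3.29 CPM for genes that fell, against 13.3 CPM for all tested genes. Of the genes that rose, 140 also did in WT, 35.3% of the calls here and 70.4% of the 199 in WT (1.35% of genes). Of those that fell, 90 also did in WT, 21.4% of the calls here and 34.4% of the 262 in WT (1.78% of genes). At any size of change, 336 of the 397 and 370 of the 420 had the same direction in WT. Their median log2 fold changes were 0.92 and −0.73 in WT, against 1.58 and −1.35 here, where they were chosen. The interaction had an adjusted *p* under 0.05, in either direction, for 81 and 42 of them. These counts include changes smaller than in WT, such as the rise of *acs-2* and the fall of *dod-24* below. Among all tested genes the interaction passed the adjusted *p* towards higher values in 154 and towards lower values in 82, a split by sign that the 81 and 42 do not have. Without the threshold on fold change, the adjusted *p* called 811 genes up (5.52%) and 1100 down (7.49%). Without replicate 1 on control diets 310 genes rose and 297 fell, and without replicate 2 the numbers were 389 and 577. With the length correction they were 417 and 394. With scaling to library totals only, 38.5% of the calls were increases, against 48.6% as reported.

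**Figure D2:**
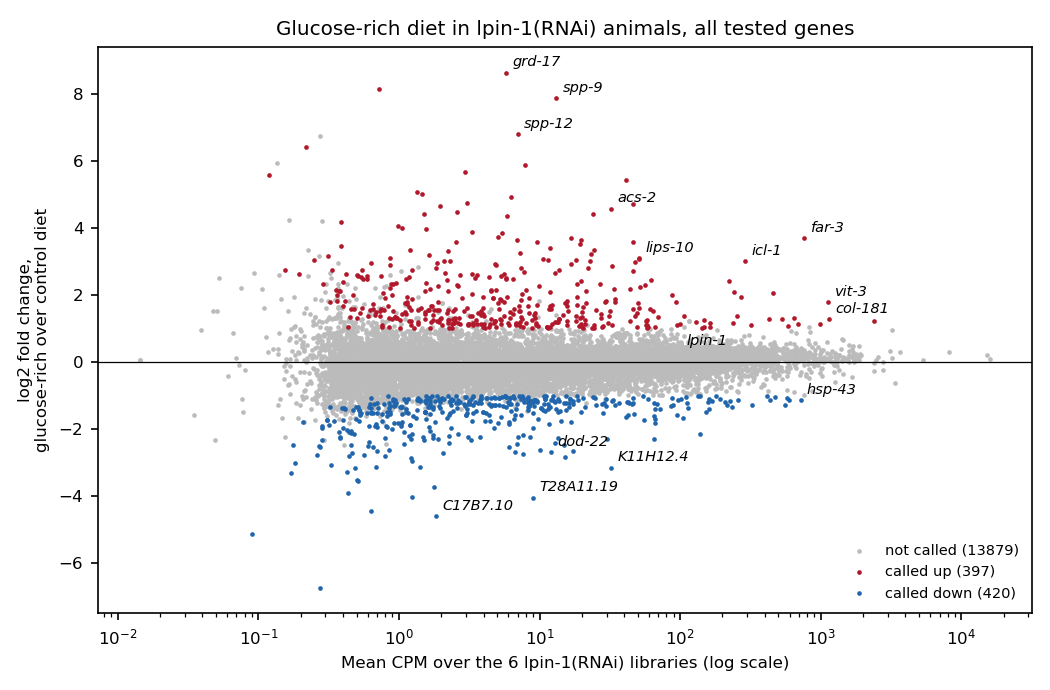
Each point is 1 of the 14696 tested genes, by its mean CPM over the 6 *lpin-1(RNAi)* libraries (x, log scale) and its log2 fold change on glucose-rich over control diets (y). The 397 red points rose and the 420 blue points fell. Called genes lie at low and high levels, with *col-181* at a mean of 1143 CPM among the increases.

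Several genes of fatty acid breakdown rose, among them *acs-2* (chromosome V, 15567394 to 15569897), an acyl-CoA synthetase that activates fatty acids for mitochondrial oxidation. *acs-2* had 2.98, 2.80 and 1.86 CPM on control diets and 63.0, 60.7 and 63.7 CPM on glucose-rich diets. The 3 glucose libraries were close to each other and far above the control libraries. The log2 fold change was 4.58 ± 0.16 (SE; adjusted *p* = 9.3e-09), a 23.9-fold rise. In WT *acs-2* rose further, from 1.85 ± 0.490 to 106 ± 7.69 CPM (SD, n = 3). The difference between the effects of glucose was −1.28 ± 0.23 on the log2 scale (interaction, adjusted *p* = 0.0126), so the rise was smaller under *lpin-1* RNAi.

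*acdh-2*, an acyl-CoA dehydrogenase, had 0.0930, 0.151 and 0.0531 CPM on control diets and 5.95, 1.77 and 9.58 CPM with glucose. The glucose libraries were all higher but spread 5.42-fold among themselves, with replicate 2 lowest, and the fitted log2 fold change was 5.68 ± 0.82 (adjusted *p* = 0.00055). *cpt-5*, a carnitine palmitoyltransferase that carries fatty acids towards mitochondria, went from 2.92, 5.46 and 3.13 to 34.6, 31.2 and 31.7 CPM, a log2 fold change of 3.06 ± 0.20 (adjusted *p* = 1.2e-06). Its WT level was already higher on control diets (16.5 ± 2.01 CPM, SD, n = 3), and its rise exceeded that in WT by 1.50 ± 0.27 (adjusted *p* = 0.0117). *acox-1.1*, a peroxisomal acyl-CoA oxidase, went from 19.4, 25.8 and 22.95 to 77.5, 72.7 and 82.9 CPM, or 1.78 ± 0.11 on the log2 scale (adjusted *p* = 6.2e-07). For both genes the diets did not overlap, and the highest glucose library was 1.11 times the lowest for *cpt-5* and 1.14 times for *acox-1.1*.

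Of the 67 tested genes of fatty acid oxidation 9 rose and 2 fell, beside 2.7% and 2.86% of all genes. Without the fold threshold 32 passed the adjusted *p* upwards and 4 downwards (5.52% and 7.49% of all genes). The list's median log2 fold change was 0.30, against −0.00 for all tested genes and 0.16 for the same list in WT. It was 0.21 with the length correction, with 9 up and 3 down, and without replicate 1 on control diets 25 members passed the adjusted *p* upwards. The decreases were *ech-9*, an enoyl-CoA hydratase, at 4.56, 1.48 and 1.54 against 0.293, 0.170 and 0.408 CPM, and *hacd-1*, a hydroxyacyl-CoA dehydrogenase. *hacd-1* had 365, 336 and 316 CPM on control diets and 122, 154 and 122 CPM with glucose, a log2 fold change of −1.36 ± 0.13 (adjusted *p* = 2.5e-05). Breakdown genes therefore did not all move one way.

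**Figure D3:**
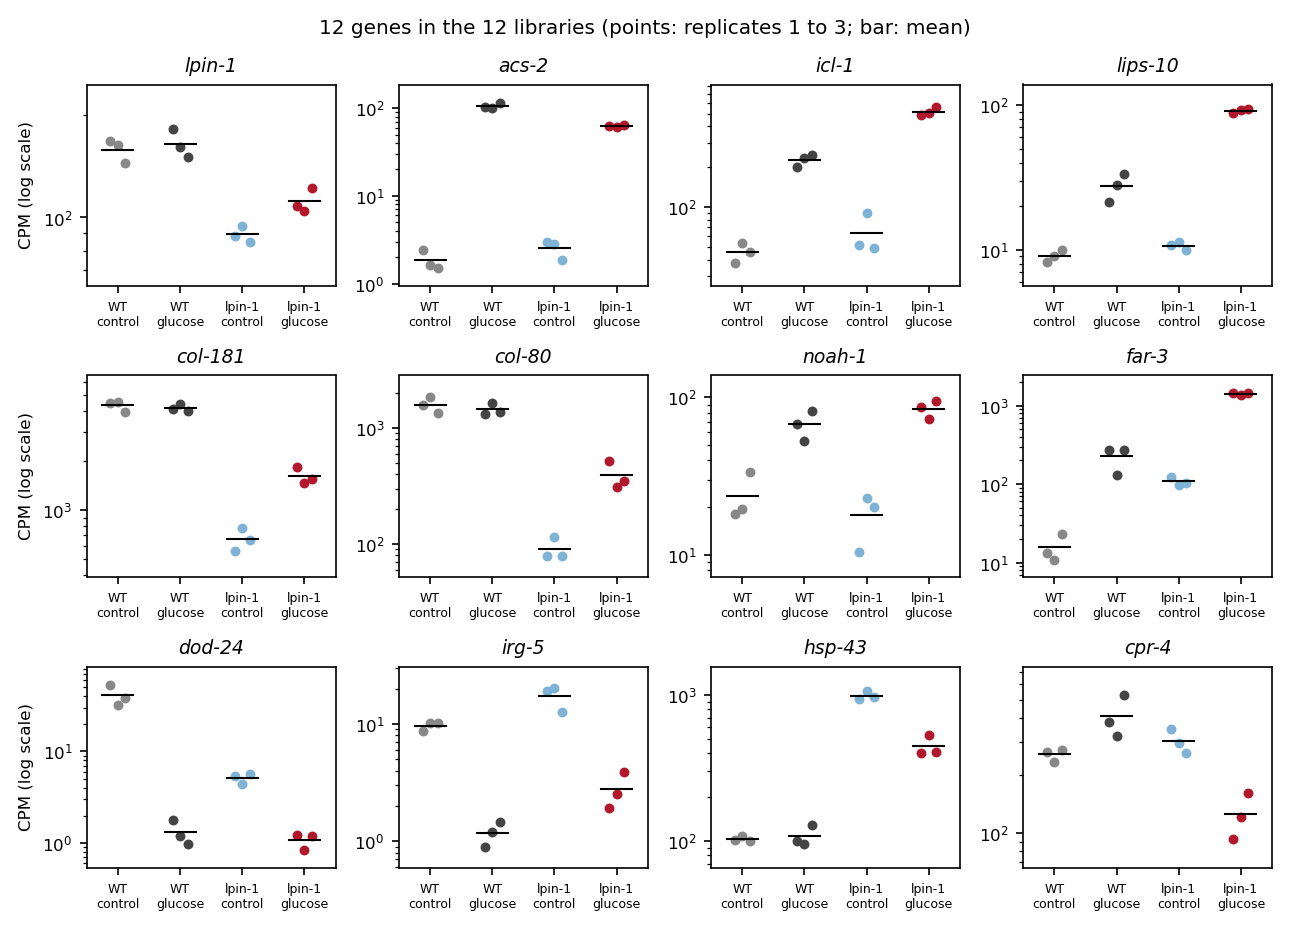
CPM (log scale) of 12 genes in each of the 12 libraries, with points for replicates 1 to 3 and a bar at the mean of each group. *acs-2*, *icl-1*, *lips-10*, *noah-1* and *far-3* are higher with glucose in both WT and *lpin-1(RNAi)* animals, *col-181* and *col-80* are higher with glucose under *lpin-1* RNAi and remain below WT, and *dod-24* and *irg-5* are lower with glucose in both.

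*icl-1*, which joins isocitrate lyase and malate synthase and opens the glyoxylate route from fat to sugar (chromosome V, 724332 to 728004), had 51.2, 90.0 and 48.6 CPM on control diets and 484, 505 and 556 CPM with glucose. The lowest glucose library was 5.38 times the highest control library, replicate 2. The log2 fold change was 3.02 ± 0.22 (adjusted *p* = 2.4e-06), and in WT 2.30 ± 0.21. The difference between them did not pass the threshold (0.72 ± 0.29, adjusted *p* = 0.363). *icl-1* was the only 1 of 29 tested genes of the citric acid cycle and glyoxylate route to rise, and none fell. At the adjusted *p* alone 12 of the 29 were higher and none lower, with *aco-2* (aconitase) at 0.53 and *mdh-2* (malate dehydrogenase) at 0.53 on the log2 scale, and the median was 0.32. That count fell from 12 to 1 when replicate 1 on control diets was left out, and was 16 without replicate 2. Of 26 genes of glycolysis and gluconeogenesis none was called in either direction by edgeR or by DESeq2. At an unadjusted *p* under 0.05, 14 were higher and 1 lower, beside 12.8% and 15.3% of all genes. Of the 26, 10 passed the adjusted *p*, all upwards, among them *pck-1*, the phosphoenolpyruvate carboxykinase of gluconeogenesis, at 0.83 ± 0.14 (SE; adjusted *p* = 0.00199) against −0.43 in WT. Without replicate 1 on control diets 6 passed.

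Lipases moved in both directions. *lips-10*, a lipase-related gene, had 10.8, 11.25 and 9.88 CPM on control diets and 87.5, 92.6 and 94.2 CPM with glucose. The diets were cleanly apart, with a log2 fold change of 3.10 ± 0.14 (adjusted *p* = 9.9e-08) against 1.61 ± 0.14 in WT and a difference of 1.49 ± 0.20 (adjusted *p* = 0.00187). The lysosomal lipase genes *lipl-1*, *lipl-2* and *lipl-5* fell. *lipl-2* had 3.69, 3.59 and 3.98 CPM on control diets and 0.754, 0.646 and 1.47 CPM with glucose, a log2 fold change of −1.98 ± 0.27 (adjusted *p* = 0.0004), near its −2.05 in WT. *lipl-5* had 251, 249.7 and 219.9 CPM and 113, 116 and 129 CPM, and its log2 fold change of −1.01 ± 0.10 (adjusted *p* = 2.2e-05) lay just past the fold threshold and was −0.99 without replicate 1 on control diets. Of 16 tested lipases 1 rose and 3 fell, beside 2.7% and 2.86% of all genes, with 2 up and 2 down after the length correction and 2 up without replicate 2 of the glucose libraries.

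Among 28 genes of fatty acid synthesis and desaturation none passed the fold threshold by edgeR or by DESeq2, with 7 higher and 6 lower at an unadjusted *p* under 0.05, beside 12.8% and 15.3% of all genes. Without replicate 2 on control diets 1 rose, and in WT 2 of the 28 rose, beside 1.35% of all genes there. The stearoyl-CoA and palmitoyl-CoA desaturases, which make monounsaturated fatty acids, started from high levels. *fat-7* had 1204, 1338 and 1400.3 CPM on control diets and 1854, 1927 and 1788 CPM with glucose (log2 fold change 0.50 ± 0.11, adjusted *p* = 0.011), against 130.5 ± 18.9 CPM in WT with glucose (SD, n = 3). *fat-5* had 410.0, 573 and 436 CPM and 868, 872 and 867 CPM (0.88 ± 0.12, adjusted *p* = 0.00035), and its response differed from that in WT by −1.23 ± 0.17 on the log2 scale (adjusted *p* = 0.00246). The rise of *fat-5* was thus smaller than in WT. Both *fat-7* and *fat-5* passed the adjusted *p* below a 2-fold change. The paralog *fat-6* had 1292, 1285 and 1274 CPM on control diets and 1217, 1247 and 1329.9 CPM with glucose, values that overlapped (−0.02 ± 0.14, adjusted *p* = 0.935). *fat-2*, which desaturates oleic acid, was at 2718, 2374 and 2722 CPM and 2105, 2158 and 2251 CPM (−0.26 ± 0.10, adjusted *p* = 0.106).

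*sams-1*, the synthase of the methyl donor for phosphatidylcholine, was the 1 gene called among 35 of triacylglycerol and phospholipid synthesis. It had 93.8, 122 and 105 CPM on control diets and 247, 191 and 225 CPM with glucose, without overlap. The log2 fold change was 1.05 ± 0.11 (adjusted *p* = 5.2e-05), against −0.18 in WT, and the difference was 1.23 ± 0.16 (adjusted *p* = 0.00142). Its mean level was 24.02% of WT without added glucose and 56.3% with it. The fold threshold was no longer passed without replicate 1 on control diets (0.96), without replicate 3 there (1.00), without replicate 1 of the glucose libraries (0.91) or with the length correction (0.98), and the adjusted *p* stayed at or below 0.00051 in these fits.

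The fatty acid and retinol binding proteins split. *far-3* had 124.3, 97.3 and 104 CPM on control diets and 1452, 1369.5 and 1434 CPM with glucose. The lowest glucose library was 11.02 times the highest control library, and the log2 fold change was 3.71 ± 0.30 (adjusted *p* = 4.8e-06), near the 3.85 of WT, where *far-3* went from 15.7 ± 6.44 to 227 ± 82.0 CPM (SD, n = 3). *far-5* moved the other way, from 11.7, 7.51 and 9.24 to 2.55, 2.68 and 2.57 CPM (−1.86 ± 0.23, adjusted *p* = 0.00019), and *far-6* from 218, 162 and 159.6 to 78.7, 94.2 and 93.01 CPM (−1.02 ± 0.16, adjusted *p* = 0.00082). In WT the values were −0.29 and 0.01 (adjusted *p* = 0.553 and 0.987), and the differences were −1.57 (adjusted *p* = 0.0226) and −1.03 (adjusted *p* = 0.0344). The call of *far-6* was lost without replicate 1 on control diets (−0.87) and with the length correction (−0.92), and its difference from WT fell below 2-fold under both (−0.88 and −0.98). The difference of *far-6* missed the adjusted *p* threshold without replicate 1 or 3 of the glucose libraries (adjusted *p* = 0.085 and 0.0525). That of *far-5* missed it without replicate 1 of the glucose libraries (adjusted *p* = 0.0555).

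Some yolk protein genes rose. *vit-3* had 364, 619 and 544 CPM on control diets and 2128, 1346 and 1804 CPM with glucose, against 11246 ± 1809.9 CPM in WT with glucose (SD, n = 3). Its log2 fold change was 1.79 ± 0.24 (adjusted *p* = 0.00033). *vit-4*, the most abundant gene that rose, had 1060.3, 1727 and 1537 CPM and 3896, 2727 and 3393 CPM, a log2 fold change of 1.21 ± 0.23 (adjusted *p* = 0.00323). *vit-1* was called too, so that 3 of 10 tested yolk genes rose, and none fell. The vitellogenin copies share sequence, and the deposited values of these 3 genes hold fractions of reads in all 12 libraries, so the split among copies is uncertain. The transcripts are long (a median of 4897 bases over the list), and with the length correction only *vit-3* stayed past the fold threshold, with *vit-4* at 0.93 and *vit-1* at 0.97.

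Several genes of glycerol metabolism rose. *gpdh-1*, a glycerol phosphate dehydrogenase of the response to high osmolarity, had 3.91, 3.41 and 2.82 CPM on control diets and 16.4, 15.4 and 17.3 CPM with glucose (2.26 ± 0.19, adjusted *p* = 7.7e-06). *gpdh-2*, its abundant paralog, had 196, 211 and 209 CPM and 458, 416 and 439 CPM (1.09 ± 0.07, adjusted *p* = 1.2e-06), a call that was lost under scaling to library totals only, where the log2 fold change of *gpdh-2* was 0.995. *aqp-8*, a channel of the aquaporin family, had 12.06, 12.37 and 11.96 CPM and 67.5, 45.4 and 52.5 CPM (2.18 ± 0.12, adjusted *p* = 3.6e-07). The lowest glucose library was 3.93, 1.97 and 3.67 times the highest control library for *gpdh-1*, *gpdh-2* and *aqp-8*, and the glucose effect did not differ detectably from that in WT (differences of −0.45 ± 0.26, 0.28 ± 0.10 and 0.42 ± 0.17, adjusted *p* = 0.679, 0.291 and 0.365). Other aquaporins fell: *aqp-4* had 19.2, 13.5 and 17.2 CPM and 6.53, 5.84 and 6.40 CPM (−1.41 ± 0.14, adjusted *p* = 3.5e-05). Over 28 genes of glycerol, trehalose and glycogen, 4 rose and 2 fell, beside 2.7% and 2.86% of all genes (1 fell without replicate 2 of the glucose libraries). *argk-1*, an arginine kinase that buffers cellular energy, stood outside the lists at 3.66, 4.04 and 5.63 CPM on control diets and 31.7, 34.3 and 66.1 CPM with glucose (3.33 ± 0.35, adjusted *p* = 4e-05).

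Cuticle collagens were the list with the most increases: 28 of 130 tested members rose and none fell, beside 2.7% and 2.86% of all genes. The median log2 fold change was 0.51, against −0.53 for the same list in WT, where 8 rose and 3 fell. The count was 30 up and 1 down with the length correction, and 32 up and 1 down without replicate 1 on control diets. Set beside the effect in WT, the 28 genes fell into 8 that also rose in WT, 18 whose rise exceeded the effect in WT past the interaction threshold (adjusted *p* under 0.05), and 2 that met neither condition. This split was made after the values were seen and is a description.

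The 18 were mostly abundant, with a median of 232 CPM and a range from 0.534 to 1143 CPM. *col-181* (chromosome X, 12104930 to 12106102) had 562, 781 and 656 CPM on control diets and 1838, 1467 and 1556 CPM with glucose, while WT had 4352 ± 321 and 4169 ± 226 CPM (SD, n = 3). The glucose libraries lay above their own controls and below WT. The log2 fold change was 1.28 ± 0.12 (adjusted *p* = 2.4e-05) against −0.06 in WT, and the difference was 1.34 ± 0.17 (adjusted *p* = 0.00164). *col-19*, a marker of the adult hypodermis, had 325, 442 and 345.1 CPM and 1069, 810.4 and 884 CPM (1.31 ± 0.14, adjusted *p* = 5.8e-05; difference from WT 1.36 ± 0.20, adjusted *p* = 0.00368). *col-80* had 79.1, 116 and 78.8 CPM and 516, 311 and 348 CPM (2.10 ± 0.21, adjusted *p* = 2.6e-05; difference from WT 2.24 ± 0.28, adjusted *p* = 0.00141). In each, replicate 1 was the highest glucose library and no value overlapped between diets.

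The largest differences from WT in this set were those of *col-93*, at 2.65 ± 0.33 (SE; adjusted *p* = 0.00118), *col-158*, at 2.52 (adjusted *p* = 0.0376), and *col-124*, at 2.49 ± 0.27 (adjusted *p* = 0.00065). *col-158* was scarce, at a mean of 0.148 CPM on control diets and 0.921 CPM with glucose. Its difference missed the threshold without replicate 2 or 3 on control diets or replicate 1 or 2 of the glucose libraries (adjusted *p* up to 0.107). Over the 18 collagens, *lpin-1(RNAi)* animals had a median of 9.68% of the WT level without added glucose (range 1.62% to 23.8%) and 31.8% with it (range 9.92% to 60.2%). Both percentages use the *lpin-1(RNAi)* libraries of the glucose comparison, by which the 18 were chosen, so they restate that choice. In each fit that gave the difference from WT, the log2 fold change and the difference were positive for every one of the 18 that was fitted, 17 of them where at least 10 counts were required in every library. Because the 18 were chosen by these signs in largely the same libraries, the signs add no support. Past the threshold of the interaction, however, were 14 without replicate 1 on control diets, 13 without replicate 1 of the glucose libraries, 2 when the 4 libraries numbered 1 were left out and 0 when those numbered 3 were left out. The glucose effect in *lpin-1(RNAi)* animals stayed past both thresholds for 18 of the 18 without replicate 1 on control diets, 12 without replicate 1 of the glucose libraries and 8 without the libraries numbered 1.

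**Figure D4:**
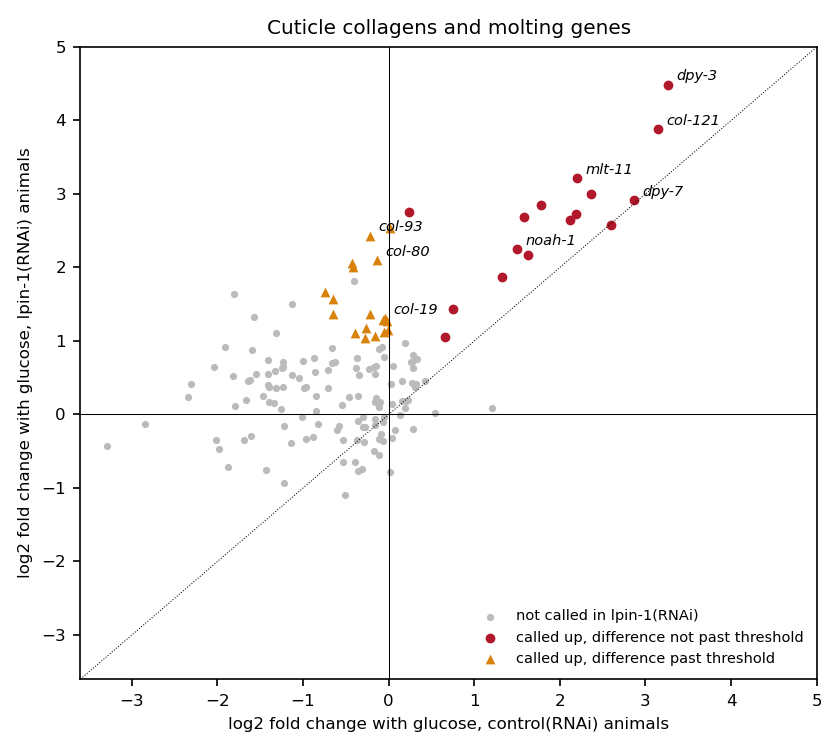
Log2 fold change with glucose in *control(RNAi)* animals (x) and in *lpin-1(RNAi)* animals (y) for cuticle collagens and molting genes, with the dotted line marking equal effects. Red circles rose in *lpin-1(RNAi)* animals without a detectable difference between the effects, among them *dpy-3*, *col-121*, *dpy-7*, *mlt-11* and *noah-1*, and orange triangles, among them *col-80* and *col-93*, rose in *lpin-1(RNAi)* animals and lie near 0 or below on the x axis.

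The 8 collagens that also rose in WT (*dpy-2*, *dpy-3*, *dpy-7*, *dpy-10*, *dpy-14*, *dpy-17*, *sqt-3* and *col-121*) were scarcer, with a median of 9.06 CPM. They include the furrow collagens *dpy-2*, *dpy-3*, *dpy-7* and *dpy-10*, which pattern the rings of the cuticle and are made in pulses before each larval molt. Their calls here also turned on the libraries kept. Without the libraries numbered 1, *col-121*, *dpy-2*, *dpy-7*, *dpy-10*, *dpy-14* and *dpy-17* had adjusted *p* from 0.071 to 0.147. Without those numbered 3, *dpy-2* and *dpy-7* were at 0.0908 and 0.0821. *dpy-3* and *sqt-3* kept their calls in every fit tried. *dpy-7* had 1.77, 0.483 and 1.17 CPM on control diets and 7.54, 4.69 and 13.6 CPM with glucose (2.91 ± 0.69, adjusted *p* = 0.0134). *dpy-3* had 0.310, 0.0905 and 0.266 CPM and 4.23, 2.75 and 7.91 CPM (fitted 4.49 ± 0.72, adjusted *p* = 0.0012). The diets did not overlap, and among the glucose libraries replicate 2 was the lowest and replicate 3 the highest for both genes. For *dpy-3* the WT libraries with glucose ran in the same order, at 2.94, 1.16 and 6.68 CPM. This order held in the glucose libraries of both *lpin-1(RNAi)* and WT animals for *col-121*, *mlt-8*, *mlt-11*, *ifa-3* and *clec-78* too, but not for *wrt-10*. The effect in WT was 2.86 for *dpy-7* and 3.26 for *dpy-3*, with differences of 0.05 ± 0.96 and 1.224 ± 1.08 that did not pass the threshold (adjusted *p* = 1 and 0.912).

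Of 28 genes of the molt 6 rose (*nhr-25*, *noah-1*, *noah-2*, *mlt-8*, *mlt-11* and *fbn-1*), none fell, and 5 of the 6 rose in WT as well. *nhr-25* was below 2-fold without replicate 1 on control diets (0.80), without replicate 2 of the glucose libraries (0.99) and with the length correction (0.93). *mlt-11*, a secreted protease inhibitor needed for molting, had 2.73, 6.09 and 4.78 CPM on control diets and 41.95, 29.2 and 55.2 CPM with glucose (3.22 ± 0.43, adjusted *p* = 0.00034). *noah-1*, a zona pellucida protein of the apical matrix that attaches epidermis to cuticle, had 10.5, 23.04 and 20.2 CPM and 86.8, 73.3 and 94.8 CPM (2.25 ± 0.29, adjusted *p* = 0.00022). *lpr-3*, a lipocalin of the matrix that precedes the cuticle, had 2.17, 3.68 and 2.98 CPM and 10.3, 9.28 and 16.4 CPM (2.02 ± 0.36, adjusted *p* = 0.00216). The lowest glucose library was 4.80, 3.18 and 2.52 times the highest control library in *mlt-11*, *noah-1* and *lpr-3*, and replicate 2 was the lowest glucose library, replicate 3 the highest. Lipocalin genes *lpr-3*, *lpr-5* and *lpr-6* lie side by side on chromosome X and rose together, *lpr-5* with an adjusted *p* above 0.05 without replicate 2 or 3 on control diets or replicate 3 of the glucose libraries (up to 0.103). *ifa-3*, an intermediate filament gene, was among the 10 largest increases at 0.124, 0.271 and 0.266 CPM against 5.15, 2.99 and 9.62 CPM (fitted 4.75 ± 0.77, adjusted *p* = 0.00127). The hedgehog-related and patched-related genes, many of which are made in the epidermis around molts, had 8 of 53 members up and 1 down (0 down without replicate 1 or 3 of the glucose libraries), including *wrt-10* at 5.09, 6.82 and 8.98 against 19.8, 21.6 and 28.98 CPM and *ptr-22* at 1.52, 1.48 and 1.65 against 7.33, 8.46 and 13.1 CPM.

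Among genes of innate immunity, 4 of 18 pathogen response genes fell and none rose. *irg-5*, an infection response gene of the p38 pathway, had 19.01, 20.3 and 12.7 CPM on control diets and 1.93, 2.55 and 3.91 CPM with glucose, without overlap. The log2 fold change was −2.64 ± 0.25 (adjusted *p* = 2e-05) and in WT −3.005, with a difference of 0.37 ± 0.37 (adjusted *p* = 0.943). *sysm-1* had 9.71, 12.7 and 12.43 CPM and 2.01, 1.50 and 2.93 CPM (−2.44 ± 0.22, adjusted *p* = 1.6e-05), and here the fall was smaller than in WT by 1.97 ± 0.34 (adjusted *p* = 0.0089).

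The *dod* genes, a set named for acting downstream of the FOXO factor DAF-16, had 4 of 10 members down, none up and a median of −1.03. *dod-22* had 18.98, 19.7 and 24.4 CPM on control diets and 3.52, 1.90 and 4.36 CPM with glucose (−2.697 ± 0.26, adjusted *p* = 2.5e-05). *dod-24* had 5.40, 4.40 and 5.63 CPM and 1.21, 0.850 and 1.18 CPM (−2.25 ± 0.25, adjusted *p* = 7.1e-05). With glucose the values of *dod-24* overlapped those of WT (1.32 ± 0.422 CPM, SD, n = 3), but they came from a control level that was 12.6% of WT. Its fall was smaller than the −4.99 ± 0.25 of WT, by 2.74 ± 0.36 (adjusted *p* = 0.00173), and that of *dod-22* was smaller by 1.88 ± 0.41 (adjusted *p* = 0.0346; lost without replicate 1 or 3 of either diet, with adjusted *p* up to 0.0996). *dod-19*, the most abundant of the 4 at 154 CPM over the 6 libraries, fell by 1.498 ± 0.10 on the log2 scale (SE; adjusted *p* = 9.2e-07).

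Lysozyme genes *lys-1*, *lys-2* and *lys-3*, neighbours on chromosome V that encode enzymes against bacterial cell walls, all fell, 3 of 12 in the list. *lys-1* had 751, 559 and 594 CPM on control diets and 289, 291 and 348 CPM with glucose (−1.04 ± 0.14, adjusted *p* = 0.00029). Its lowest control library was 1.61 times its highest glucose library. *lys-3* had 9.96, 12.8 and 10.5 CPM and 3.52, 3.09 and 4.48 CPM (−1.59 ± 0.28, adjusted *p* = 0.00231), against 0.614 ± 0.126 CPM in WT on control diets (SD, n = 3). The transcripts are short, and *lys-1* and *lys-2* stayed below a 2-fold change with the length correction (−0.94 and −0.93) and without replicate 1 on control diets (−0.91 and −0.80).

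Of 23 saposin-like genes, which encode small proteins that bind membranes, 6 fell, 2 rose and the median was −0.67. *spp-2* had 82.9, 68.5 and 57.9 CPM on control diets and 21.3, 28.5 and 22.01 CPM with glucose (−1.54 ± 0.16, adjusted *p* = 4.3e-05), and *spp-1*, whose product kills bacteria, 15.01, 15.5 and 13.8 and 4.77, 5.17 and 7.09 CPM (−1.38 ± 0.16, adjusted *p* = 8.4e-05). Both fell without overlap. With the length correction 3 of 23 fell, with a median of −0.51, and without replicate 2 on control diets 10 did. Against this, *spp-9* and *spp-12* went from near 0 to clear expression. *spp-9* had 6, 2 and 1 counts in the control libraries and 801, 634 and 575 in the glucose libraries, or 0.186, 0.0603 and 0.0531 and 33.5, 21.5 and 23.4 CPM (fitted log2 fold change 7.88 ± 0.37, adjusted *p* = 4.9e-07). *spp-12* had 4, 4 and 2 counts and 395, 323 and 349 counts (fitted 6.81 ± 0.30, adjusted *p* = 8.5e-08). In WT both were near 0 on both diets. The difference from WT passed the threshold for *spp-12* (fitted 6.68, adjusted *p* = 0.0379, up to 0.0708 with 1 library left out, the libraries that end the call being replicates 1 and 3 on either diet). It did not for *spp-9* (fitted 4.146 ± 22.1, adjusted *p* = 0.996). WT had 0 counts of *spp-9* in each control library and 0, 2 and 2 with glucose, so its test could not decide.

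Antimicrobial peptide genes were divided, with 6 of 42 up and 5 down, and 7 up and 3 down with the length correction (2.7% and 2.86% of all genes as reported). *fipr-22*, of the fungus-induced peptide family, had 1.24, 1.599 and 1.65 CPM on control diets and 13.2, 16.3 and 23.7 CPM with glucose (3.57 ± 0.31, adjusted *p* = 1.1e-05), with reads divided among near copies in 9 libraries. *abf-2*, an antibacterial factor, had 12.34, 14.3 and 10.7 CPM and 2.39, 3.64 and 2.16 CPM (−2.18 ± 0.22, adjusted *p* = 3.4e-05). In WT *abf-2* was below 1 CPM on both diets and the difference was −3.10 ± 0.44 (adjusted *p* = 0.00308). C-type lectins, sugar-binding proteins of the gut and epidermis, had 14 of 104 members down and 7 up, beside 2.86% and 2.7% of all genes. *clec-139* had 3.88, 2.77 and 2.82 and 0.628, 0.476 and 0.856 CPM (−2.28 ± 0.30, adjusted *p* = 0.00024), and *clec-78* 1.74, 2.77 and 2.18 and 19.3, 11.35 and 26.4 CPM (3.08 ± 0.54, adjusted *p* = 0.002). The list of 24 intracellular pathogen response genes had none called by edgeR or DESeq2, with 11 lower and 0 higher at an unadjusted *p* under 0.05 (15.3% and 12.8% of all genes), a median of −0.42 and 1 member above 0.

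Detoxification genes changed in both directions. Cytochrome P450 genes, which oxidize fatty acids and foreign compounds, had 10 of 60 members up and 5 down, beside 2.7% and 2.86% of all genes. *cyp-13B1* had 0.403, 0.392 and 0.372 CPM on control diets and 12.7, 9.65 and 13.8 CPM with glucose (4.93 ± 0.31, adjusted *p* = 8.4e-07), a rise 2.54 ± 0.43 larger on the log2 scale than in WT (adjusted *p* = 0.00869). *cyp-35A3*, of a family linked to fat storage, had 0.0930, 0.875 and 0.691 CPM and 5.11, 8.50 and 19.9 CPM (fitted 4.36 ± 0.74, adjusted *p* = 0.00171), with a wide spread in both diets. *cyp-13A5* fell from 72.2, 63.5 and 56.7 to 18.3, 26.4 and 19.1 CPM (−1.59 ± 0.20, adjusted *p* = 0.0002). *gst-4*, a glutathione transferase often read as a sign of SKN-1 activity, rose from 9.37, 7.87 and 8.61 to 31.3, 26.9 and 26.7 CPM. The highest library of a diet was at most 1.19 times its lowest, and the log2 fold change was 1.72 ± 0.11 (adjusted *p* = 7.7e-07) against 0.69 ± 0.10 in WT. The difference of 1.02 ± 0.15 (adjusted *p* = 0.00308) fell below 2-fold without replicate 2 or 3 on control diets or replicate 1 of the glucose libraries (0.88, 0.97 and 0.88). *gst-4* was the only rise among 43 glutathione transferases, of which 3 fell, beside 2.7% and 2.86% of all genes, and without replicate 1 on control diets 1 fell. UDP-glycosyltransferases had 5 of 61 up and 2 down, the latter near the share of all genes (1 down without replicate 1 on control diets). *ugt-35* had 0 counts in each control library and 51, 23 and 35 counts in the glucose libraries.

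A few signalling genes and digestive enzymes were among the decreases. Of 35 insulin-like and signalling genes 2 fell, and of 19 gut proteases 2 fell, beside 2.86% of all genes, and 0 rose in either list. With libraries left out, the numbers down ran from 1 to 2 and from 1 to 5. *ins-7*, an insulin-like peptide that activates the receptor DAF-2, had 5.58, 2.87 and 4.52 CPM on control diets and 0.837, 0.884 and 1.223 CPM with glucose (−2.13 ± 0.28, adjusted *p* = 0.00023). With glucose its values overlapped those of WT, which were 0.970 ± 0.0789 and 0.953 ± 0.236 CPM on the 2 diets (SD, n = 3). The difference from WT was −2.12 ± 0.42 (adjusted *p* = 0.0206; no longer past 0.05 without replicate 3 on control diets or replicate 1 or 2 of the glucose libraries, with adjusted *p* up to 0.0673). *cpr-4*, a cathepsin B-like protease, had 350.1, 297 and 263 CPM on control diets and 92.4, 122 and 161 CPM with glucose (−1.28 ± 0.20, adjusted *p* = 0.00114), whereas its estimate in WT was 0.67 ± 0.20 (adjusted *p* = 0.0778) and the difference −1.94 ± 0.29 (adjusted *p* = 0.00371). *nhr-11*, a nuclear hormone receptor, rose from 8.03, 6.91 and 8.93 to 34.2, 35.7 and 34.1 CPM (2.13 ± 0.22, adjusted *p* = 3.4e-05). It was 1 of 6 receptors up and 3 down of 186, beside 2.7% and 2.86% of all genes. Without replicate 1 or 3 on control diets, or replicate 1 or 2 of the glucose libraries, 3 receptors rose, and without replicate 2 or 3 on control diets 6 fell (5 with the length correction). F-box genes had 4 of 237 up and 9 down, beside 2.7% and 2.86% of all genes. The number down was 22 without replicate 2 on control diets, where 577 of all genes fell, 3 without replicate 1 there and 4 without replicate 1 of the glucose libraries, so it turned on single libraries. The number up was 2 without replicate 1 on control diets or replicate 1 or 3 of the glucose libraries. MATH and BTB genes had 0 of 69 up and 2 down, beside the same 2.7% and 2.86%. Their number down was 1 without replicate 1 on control diets and 4 without replicate 2 there or replicate 3 of the glucose libraries.

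Transthyretin-related genes, short genes for secreted proteins, had 10 of 50 members down and 1 up, with a median of −0.45. The neighbours *ttr-27*, *ttr-28* and *ttr-29* on chromosome V all fell. *ttr-27* had 7.32, 6.09 and 6.16 CPM on control diets and 1.55, 2.55 and 2.45 CPM with glucose (−1.57 ± 0.20, adjusted *p* = 0.00022), and *ttr-29* 2.76, 3.11 and 2.60 CPM and 0.544, 1.05 and 0.815 CPM (−1.80 ± 0.27, adjusted *p* = 0.00077). With the length correction 6 of 50 fell and the median was −0.28. Without replicate 1 on control diets 7 fell and without replicate 2 there 13, so the count varied with the libraries that stood apart.

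**Figure D5:**
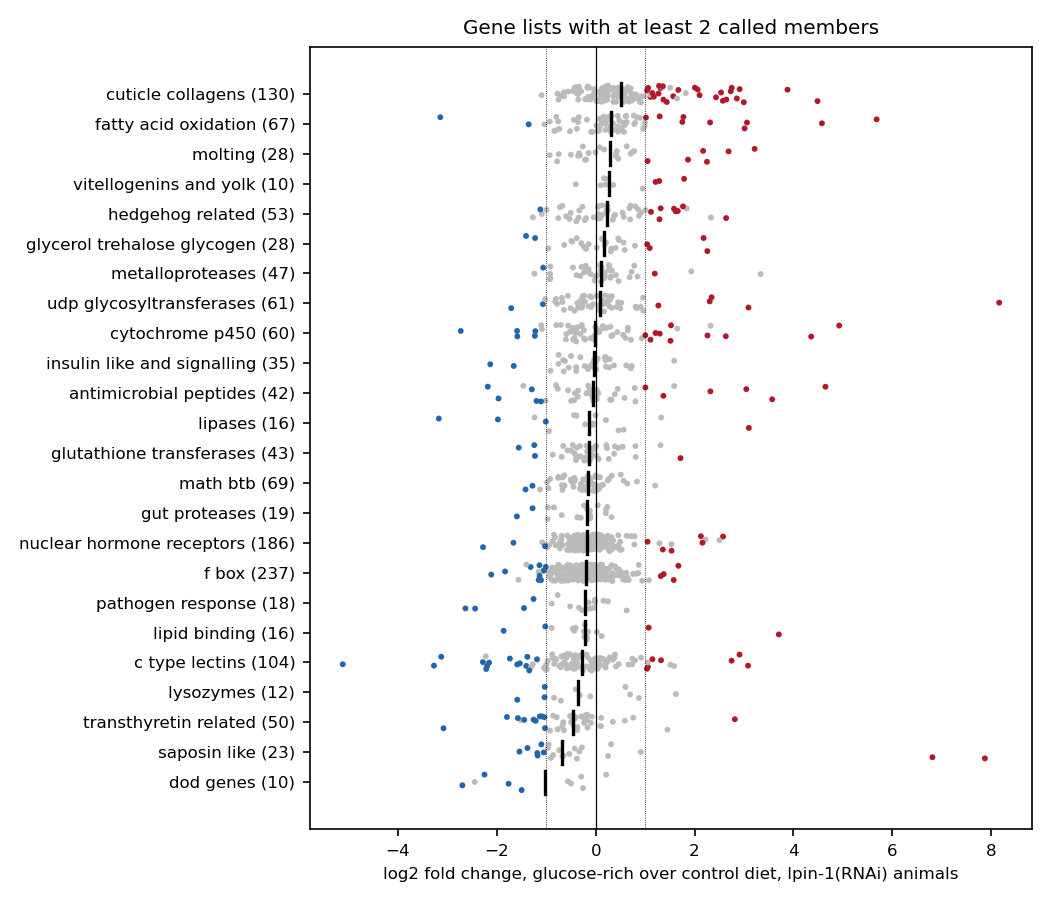
Log2 fold change with glucose in *lpin-1(RNAi)* animals for every tested member of the gene lists with at least 2 called members, the number tested in brackets, with red points up, blue points down, gray points not called and a black bar at the list's median. Lists run from the *dod* genes, with a median of −1.03, to the cuticle collagens, with a median of 0.51.

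Some large changes were in genes whose role is not given by the annotation used. *T19B10.5* (chromosome V, 11234650 to 11237427) had 3.13, 3.20 and 3.77 CPM on control diets and 122, 58.8 and 84.6 CPM with glucose. It rose by 4.72 ± 0.25 on the log2 scale (adjusted *p* = 2.5e-07), against 0.45 ± 0.22 in WT, and the difference of 4.27 ± 0.32 (adjusted *p* = 5.5e-05) passed the threshold in every fit tried. *F48C1.9* had 2.11, 0.965 and 2.71 CPM and 76.5, 79.1 and 86.6 CPM (5.44 ± 0.37, adjusted *p* = 1.6e-06). WBGene00001706, annotated as a pseudogene at the position of *grd-17* in RefSeq (chromosome V, 16990810 to 16991459), had 1, 0 and 1 counts on control diets and 344, 247 and 288 counts with glucose. The pseudogene WBGene00014732, likewise *F09F3.8*, had 0.310, 0.271 and 0.159 CPM and 16.3, 15.6 and 14.6 CPM (5.88 ± 0.32, adjusted *p* = 3.1e-07). No value overlapped between diets in these genes, and the glucose libraries of *T19B10.5* spread 2.07-fold, with replicate 1 highest. Unlike *T19B10.5*, *F48C1.9*, WBGene00001706 and WBGene00014732 rose in WT too, with fitted log2 fold changes of 7.95, 9.43 and 4.01. Their differences from WT did not pass the threshold (interaction, adjusted *p* = 0.349, 0.962 and 0.261).

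Among the largest decreases were uncharacterized genes whose level on control diets was above WT. *C17B7.10* had 5.24, 2.02 and 3.4004 CPM on control diets and 0.0419, 0.102 and 0.285 CPM with glucose (fitted log2 fold change −4.602 ± 0.54, adjusted *p* = 0.00011). *T28A11.19* had 23.2, 11.6 and 16.05 CPM and 0.796, 1.19 and 1.06 CPM (−4.05 ± 0.32, adjusted *p* = 4e-06). *K11H12.4* had 81.2, 48.4 and 44.7 CPM and 6.57, 6.01 and 7.09 CPM (−3.15 ± 0.25, adjusted *p* = 4.5e-06). In all 3, replicate 1 was the highest control library, and WT on control diets had lower levels, of 0.367 ± 0.165, 1.51 ± 0.477 and 17.2 ± 3.36 CPM (SD, n = 3). The 3 genes fell in WT also, with fitted log2 fold changes of −4.18, −2.67 and −2.06. *B0348.2* had 38.6, 17.2 and 23.7 CPM on control diets, 4.23, 3.57 and 3.42 CPM with glucose (−2.82 ± 0.34, adjusted *p* = 0.00014) and at most 0.21 CPM in any WT library. *E02H4.7* differed from these, in that its level on control diets was below that of WT. It went from 2.98, 3.71 and 4.04 to 0.461, 0.612 and 0.530 CPM (−2.71 ± 0.21, adjusted *p* = 4e-06), with a difference from WT of −1.58 ± 0.27 on the log2 scale (adjusted *p* = 0.00905).

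Called genes were often neighbours on the chromosome. Of the genes that fell, 24.8% had a tested neighbour that fell, against 4.86% of the genes that did not fall, and of those that rose 18.6% had a neighbour that rose, against 4.89%. The longest run held 6 genes that rose on chromosome V, 7411995 to 7436958: *str-41*, *F18E3.11*, *F18E3.12*, *F18E3.13*, *ddo-2* and *F25E5.8*, with log2 fold changes from 1.07 to 2.47. *F18E3.12*, the most changed, had 2.36, 2.17 and 1.28 CPM on control diets and 11.6, 11.4 and 9.90 CPM with glucose. On the same chromosome lie 2 runs of 5 genes that fell. *T28A11.16*, *T28A11.17*, *T28A11.19*, *T28A11.20* and *T28A11.3* (3258374 to 3276110) ran from −4.05 to −1.90, and *arrd-21*, *T20D4.15*, *T20D4.12*, *T20D4.11* and *T20D4.10* (3389330 to 3401063) from −2.68 to −1.16. Neighbours of one family can share sequence and so reads, and *str-41*, *F18E3.11*, *arrd-21* and *T20D4.12* lost their calls when single libraries were left out, each of several alone. For *F18E3.11* the log2 fold change was 0.81 without replicate 2 on control diets and 0.90 without replicate 3 there (adjusted *p* = 0.0583). Chromosome V held 5.5% of its tested genes among the decreases and 3.92% among the increases, chromosome III 1.35% and 1.7%.

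Among the most abundant genes that fell, *lys-1* aside, were genes far above WT on control diets, and they were above WT with glucose also. *hsp-43*, a small heat shock protein, had 935, 1068 and 968 CPM on control diets and 398, 536 and 409 CPM with glucose, against 103 ± 4.55 and 108 ± 17.7 CPM in WT (SD, n = 3). *warf-1*, of the ARF family of small GTPases, had 958, 684 and 803 CPM and 338, 435 and 349 CPM, against 2.03 ± 0.135 and 1.16 ± 0.115 CPM in WT (SD, n = 3). *tbb-6*, a beta tubulin, had 859, 715 and 772 CPM and 325, 461 and 334 CPM, against 5.12 ± 1.14 and 3.54 ± 0.357 CPM in WT (SD, n = 3). In all 3 genes the glucose libraries stood above WT and below their own controls, without overlap, and replicate 2 was the highest with glucose. The log2 fold changes were −1.15 ± 0.13, −1.12 ± 0.13 and −1.07 ± 0.15 (adjusted *p* = 9.7e-05, 7.4e-05 and 0.00055). The differences from WT were −1.21 for *hsp-43* (adjusted *p* = 0.00452), and for *warf-1* and *tbb-6* −0.33 and −0.55, not past the threshold (adjusted *p* = 0.868 and 0.495). *M60.4*, whose annotation overlaps another gene on the same strand, had 933, 676 and 762 CPM and 258, 389.5 and 333 CPM (−1.27 ± 0.15, adjusted *p* = 0.00011). *warf-1* had fractional counts in 6 libraries and was at −0.98 with the length correction. Of 53 heat shock genes *hsp-43* was the only 1 called.

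The difference between the effects of glucose passed the same 2-fold and adjusted *p* thresholds in 119 genes towards higher values under *lpin-1* RNAi (0.81%) and in 55 towards lower values (0.374%). Leaving out the 4 libraries numbered 3 left 1 and 2 genes, and leaving out those numbered 1 left 15 and 7. Of the genes named here with such a difference, *T19B10.5* and *cpr-1* kept it in both reduced fits. Some of these genes responded in WT alone. *cpr-1*, a cathepsin B-like protease of the gut, had 256, 291 and 239.8 CPM on control diets and 227, 245 and 254 CPM with glucose in *lpin-1(RNAi)* animals, values that overlapped (−0.11 ± 0.11, adjusted *p* = 0.521). In WT it rose from 20.3 ± 1.54 to 127 ± 19.4 CPM (SD, n = 3), by 2.64 ± 0.12 on the log2 scale, and the difference of −2.76 ± 0.16 (adjusted *p* = 6.2e-06) passed the threshold in every fit tried. *ugt-36* was at 6.70, 6.76 and 5.31 CPM and 5.57, 7.102 and 5.42 CPM in *lpin-1(RNAi)* animals (−0.06 ± 0.19, adjusted *p* = 0.867) and rose in WT by 2.46 ± 0.26. *D2063.1* was at 4.47, 3.08 and 3.4004 and 3.94, 4.59 and 4.89 CPM (0.29 ± 0.20, adjusted *p* = 0.339) and rose in WT by 3.54 ± 0.42. In all 3 genes the *lpin-1(RNAi)* controls were above WT with glucose. *Y48E1B.8* showed the opposite arrangement. It had 0.155, 0.0905 and 0.0531 CPM on control diets and 3.18, 1.46 and 0.978 CPM with glucose (fitted 4.06 ± 0.51, adjusted *p* = 0.0002), while WT stayed at 20.8 ± 1.41 and 20.9 ± 2.84 CPM (SD, n = 3).

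Markers of the tissues in a whole adult were present on both diets. Intestinal markers had a summed level of 632 to 726 CPM on control diets and 456.3 to 515 CPM with glucose, with 4 of 7 lower at the adjusted *p* alone and a median log2 fold change of −0.41. Sperm genes, mostly major sperm proteins with short transcripts, summed to 279 to 589 CPM on control diets and 166 to 299.6 CPM with glucose. Their median was −0.89 over 44 genes, 2 of which fell (*sss-1* and *ssp-35*), against −1.42 in WT. Neither was called without replicate 1 on control diets, and the median was −0.70 with the length correction. Hypodermal markers, which include *col-19* and *dpy-7*, summed to 460 to 593 CPM and 966 to 1229 CPM, most of it *col-19*. Without *col-19* the sums were 135.1 to 150.4 CPM and 155.1 to 161 CPM, and 5 of the 7 markers were not called, with a list median of 0.20. Summed levels overlapped between diets for markers of body wall muscle, pharynx, neurons, sperm, oocytes and early embryos. Germline markers summed to 2947 to 4393 CPM and 4423 to 4979 CPM with glucose, and no germline, eggshell, early embryo or neuron marker was called. The part of these shifts in the gene changes above was not tested. Ribosomal proteins (80 tested), proteasome subunits (33) and mitochondrial respiration genes (61) had 0 called members by edgeR or DESeq2, with medians of 0.09, 0.12 and 0.05. At an unadjusted *p* under 0.05, 6, 6 and 16 of their members were higher and none lower, against 12.8% and 15.3% of all genes, a share that the 6 of 80 ribosomal proteins did not reach.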

How the data were processed

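Per the labels, RNA of whole worms was sequenced as stranded total RNA. The files the authors deposited hold expected counts per gene without normalization (fractions where reads match several genes). The submitters' processing notes name STAR 2.7.0e, RSEM 1.3.1, DESeq2 1.22.2 and the builds WBcel235 and ce11, without roles. Gene names came from a table of WormBase IDs (43818 matched).

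Counts were rounded, filtered (edgeR filterByExpr, minimum count 10) and scaled by TMM. Genes were fitted in edgeR 4.0.16 (R 4.3.3) with a quasi-likelihood model of the 4 group means over 12 libraries (8 residual degrees of freedom). The length correction added an offset per gene and library from a loess curve (span 0.5) of log2 deviations on log2 transcript length. Other scalings, filters, DESeq2 1.42.0, a replicate block and left-out libraries were alternatives. Calls needed an absolute log2 fold change above 1 and an adjusted *p* under 0.05. On simulated data of this comparison (14433 genes, 198 changed), 94.4% of changed genes were called and 2.60% of calls were false. In the contrast of *lpin-1(RNAi)* with WT on control diets, where no change was simulated, 0 genes were called. The simulated counts had no trend with transcript length and no effect shared by replicates, so these rates need not hold for the real libraries.

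The 36 pathway and 9 marker lists, and the genes, were chosen with earlier results of these data known. Named genes are *lpin-1*, the 10 largest increases and decreases without overlap and with at least 50 counts in every library of the higher group, the 5 most abundant calls each way, up to 2 called genes per list and direction with at least 10 counts, and the 5 largest interactions each way. Not every one is described. *fat-2*, *fat-5*, *fat-6*, *fat-7*, *cpt-5*, *acox-1.1*, *gpdh-2*, *argk-1*, *lipl-5*, *col-19*, *col-80*, *col-93*, *col-124*, *col-158*, *dpy-2*, *dpy-7*, *dpy-10*, *dpy-14*, *dpy-17*, *sqt-3*, *nhr-25*, *noah-1*, *noah-2*, *fbn-1*, *lpr-3*, *lpr-5*, *lpr-6*, *lys-2*, *ttr-27*, *dod-19*, *pck-1*, *aco-2*, *mdh-2*, members of chromosomal runs and members of counts of 5 or fewer were named after their values were seen. Promoter motifs were not analysed here.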

Additional observations from a re-analysis of the deposited data

Results flagged for a closer look

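The glucose effect differed between *lpin-1(RNAi)* and WT animals for 38 named genes, by the interaction term of edgeR's quasi-likelihood test (adjusted *p* under 0.05, difference above 1 on the log2 scale). The values are log2 differences, positive where the effect was more positive in *lpin-1(RNAi)* animals. Among collagens the differences were 2.65 for *col-93*, 2.52 for *col-158*, 2.49 for *col-124*, 2.24 for *col-80*, 1.36 for *col-19*, 1.34 for *col-181* and 1.17 for *col-122*. Among genes of lipids they were 1.50 for *cpt-5*, 1.49 for *lips-10*, 1.49 for *vit-3*, 1.23 for *sams-1*, −1.03 for *far-6*, −1.23 for *fat-5*, −1.28 for *acs-2* and −1.57 for *far-5*. Among immune and stress genes they were 6.68 for *spp-12*, 2.74 for *dod-24*, 1.97 for *sysm-1*, 1.88 for *dod-22*, −1.21 for *hsp-43*, −3.10 for *abf-2* and −9.41 for a copy of *hsp-16.48* (WBGene00002020). The last is a fitted value that depends on the prior count, because the gene had 0 counts in WT on control diets, and its reads were divided among near copies in 8 libraries. Among detoxification genes they were 2.54 for *cyp-13B1*, 2.21 for *ugt-32*, 1.02 for *gst-4* and −2.51 for *ugt-36*. For *nhr-74* the difference was 5.22, with at most 0.167 CPM in any *lpin-1(RNAi)* library, and for *F45D11.14*, with fractional counts in 10 libraries, 4.33. For the remaining genes it was 4.27 for *T19B10.5*, 4.05 for *Y48E1B.8*, −1.33 for *M60.4*, −1.58 for *E02H4.7*, −1.87 for *T20D4.10*, −1.94 for *cpr-4*, −2.12 for *ins-7*, −2.76 for *cpr-1*, 1.26 for *pck-1* and −3.25 for *D2063.1*. Of the 38, *cpr-1* and *T19B10.5* kept an adjusted *p* under 0.05 with any replicate number or single library left out.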

How the results depend on the processing

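Leaving out each replicate number or single *lpin-1(RNAi)* library gave 180 to 496 genes up and 148 to 577 down with glucose under *lpin-1* RNAi, 88 to 212 up and 82 to 315 down in WT, and 1 to 145 genes above and 2 to 128 below WT in the interaction. The interaction counts were 1 and 2 without the libraries numbered 3 and 15 and 7 without those numbered 1. Without replicate 1 of the glucose libraries 75 were above WT, and without replicate 2 on control diets 128 were below. A minimum of 10 counts in every library left 263 up and 246 down under *lpin-1* RNAi and 139 down in WT, with fewer genes tested. The adjusted *p* alone gave 811 up and 1100 down, and in WT 319 and 505. A fit of the WT libraries alone gave 171 down in WT. Without a filter 87 genes were below WT in the interaction, and with DESeq2 101. The cause of these shifts was not tested. With the replicate number as a block 466 genes rose and 572 fell under *lpin-1* RNAi, 501 down in WT, and 104 below WT in the interaction. Deviations of same-numbered libraries correlated at 0.067, 0.16 and 0.044, and those of differently numbered ones at −0.148 to 0.092. The numbers were not taken as pairs in the main fit. Some orders did recur across groups: summed sperm markers were highest in replicate 2 in each of the 4 groups. With glucose, *dpy-3*, *col-121*, *mlt-8*, *mlt-11*, *ifa-3* and *clec-78* were lowest in replicate 2 and highest in replicate 3 in both *lpin-1(RNAi)* and WT animals. Whether same-numbered libraries shared a batch was not tested. The length correction with the block gave 515 down in WT, 188 above and 119 below WT in the interaction. Of the named genes with a glucose call, 134 of 146 kept it with the length correction, 122 without replicate 1 on control diets and 89 without the libraries numbered 1. *fat-6* was at 0.03 with the length correction (0.0324) and with the block added (0.0285), in place of a small negative value, and *ugt-36* ran from −0.23 (replicate 2 of the glucose libraries left out) to 0.0316 (the libraries numbered 1 left out). The knockdown of *lpin-1* kept its direction and its adjusted *p* under 0.05 in every fit.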
